A study of Homo sapiens with 8 samples.

Results

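The peaks described here are CLIP peaks of the RNA-binding protein RBM45 that the deposited lists give on both strands of the genome. Identical rows of each wild-type (WT) list were collapsed, and a peak was taken when its name stood with both plus and minus. The rule found 3809 of 207069 peaks in replicate 1 and 1070 of 64517 peaks in replicate 2. The remaining 203260 and 63447 peaks stand on 1 strand.

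HEK293T, a widely used line derived from human embryonic kidney, was the source of every library. The cells were wild type or METTL3 knockout, and in both genotypes a lentivirus expressed FLAG-HA-tagged human RBM45, so no group lacks the tagged protein. All were irradiated with ultraviolet light at 254 nm (300 mJ/cm2), which links protein to the RNA it touches. The 8 libraries form 4 groups of 2 replicates: WT input without antibody, WT CLIP with an antibody against the HA tag, and the same pair from knockout cells. The values below come from the 2 WT CLIP lists and the deposited list of peaks shared by them. The input and knockout libraries were not analysed here. How many reads stand behind a list is unknown. Nothing in the labels says that the replicates were separate cultures. All positions are in hg19, the build named in the submitters' processing notes, numbered from 1.

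RBM45 is an RNA-binding protein with several RNA recognition motifs, and METTL3 is the catalytic subunit of the complex that writes most m6A on messenger RNA. An RNA fragment recovered by CLIP comes from 1 strand, so a sequenced read can tell a transcript from its antisense partner. Opposite-strand genes can overlap in several ways. They can overlap at their 3′ ends when they point towards each other (tail to tail), at their 5′ ends when they point away from each other (head to head), or with one inside the other. A peak placed in such a region by position alone matches annotations of both strands.

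A listing on both strands was a single peak written under 2 strands, not 2 peaks. In 3809 of 3809 and 1070 of 1070 cases the plus and minus rows carried the same start, end, score, fold enrichment and −log10 p. The number of such peaks whose rows differed in anything but strand was 0 in either list. No peak of either list overlapped another on any strand, and the closest neighbours lay 31 bases apart in replicate 1 and 22 bases apart in replicate 2. The running numbers in the peak names followed genome order on every chromosome, with 0 exceptions, whatever the strand. The fold enrichment and −log10 p of a both-strand peak are therefore given once for both strands, and the lists do not give how the signal divides between the strands. The spacing and the number order hold for all listed peaks. The lists thus do not show whether the values of one-strand peaks were counted by strand either. Which strand the RBM45-bound RNA came from was not analysed here for either kind of peak.

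The both-strand share of the listed peaks was 1.84% in replicate 1 (95% exact binomial interval 1.78 to 1.90) and 1.66% in replicate 2 (1.56 to 1.76). Both-strand peaks occurred on 24 chromosomes in replicate 1 and 23 in replicate 2, where 0 of the 6 peaks on chromosome Y were listed on both strands. In the original numbering, 96.1% of the both-strand peaks of replicate 1 had both adjacent numbers in the list, against 91.7% of one-strand peaks. In replicate 2 the figures were 92.1% and 89.8%. Gaps in the numbering were thus less frequent beside both-strand peaks in each list. All intervals reflect counting error alone and take the peaks of a list as independent of each other. Neighbouring peaks are not, so no p value over peaks is given. No test over the 2 replicates was run, and their values are set side by side.

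Where both replicates had a peak, they nearly always gave it the same strands. A replicate 1 and a replicate 2 peak that shared at least 1 base formed a pair, and a wide peak could enter several pairs. Of the 352 pairs with either peak listed on both strands, 348 had both peaks so listed, or 98.9% (97.1 to 99.7). The lists repeat rows, and the number of identical rows on each strand was also the same in the 2 replicates for 348 of 348 of these pairs. Among the 18318 pairs listed on 1 strand in both replicates, the row numbers matched in 18315. The number of repeats thus went with the position. Why rows repeat is not stated in the labels or headers used here.

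The 4 pairs that differed lay where 1 of the peaks reached further than the other. At chromosome 16, the replicate 2 peak ran 211 bases from 89784425 to 89784635 with 1 row on each strand. The replicate 1 peak at 89784598 to 89784636, 39 bases wide, had a minus row alone. At chromosome 17, 74078875 to 74078936, a 62-base replicate 1 peak had 1 plus and 6 minus rows, while the 34-base replicate 2 peak inside it, 74078889 to 74078922, had the 6 minus rows alone. At chromosome 19, a 75-base replicate 1 peak from 2426082 to 2426156 stood on both strands, and the 35-base replicate 2 peak from 2426116 to 2426150 on minus. Also on chromosome 19, a 404-base replicate 1 peak from 54972756 to 54973159 stood on both strands, and a 157-base replicate 2 peak starting at 54972758 on plus. In all 4 the wider peak was the one with both strands.

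Both-strand peaks came in uninterrupted stretches, in which no one-strand peak stood between them. Replicate 1 had 829 stretches and replicate 2 had 378. Single peaks made up 321 and 195 of these and held 8.43% and 18.2% of the both-strand peaks. The 61 replicate 1 stretches of 11 to 20 peaks held 22.5% of them, and the 18 such stretches of replicate 2 held 22.5%. The longest stretch had 86 peaks in replicate 1 and 60 in replicate 2. The nearest listed peak was itself listed on both strands for 86.5% of both-strand peaks in replicate 1 (85.4 to 87.6) and 77.1% in replicate 2 (74.5 to 79.6). For one-strand peaks this share was 0.274% and 0.432%.

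**Figure D1:**
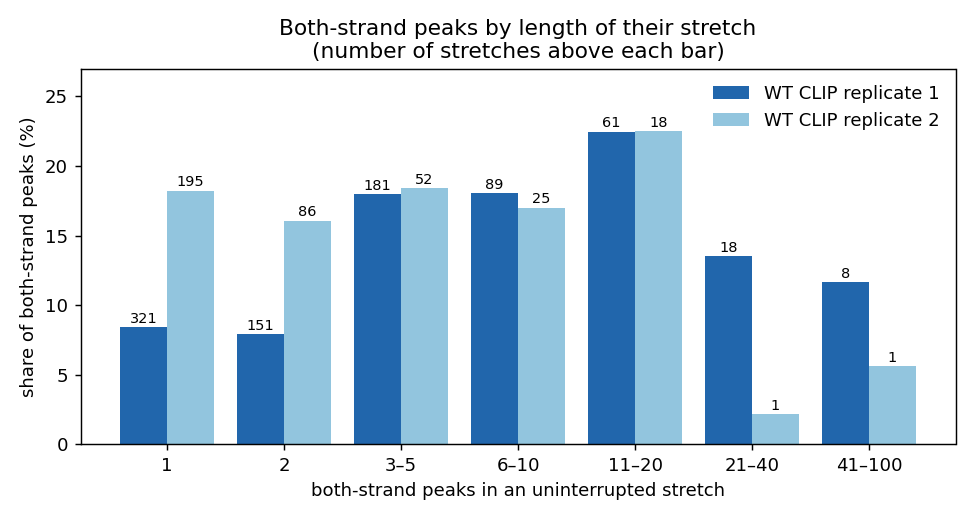
Share of the both-strand peaks (vertical axis, %) by the number of both-strand peaks in their uninterrupted stretch (horizontal axis), for WT CLIP replicate 1 (dark) and replicate 2 (light), with the number of stretches above each bar. Single peaks are the most frequent kind of stretch, 321 and 195, but hold 8.43% and 18.2% of the peaks.

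Stretches found in one replicate were both-strand ground in the other. The 508 replicate 1 stretches of at least 2 peaks spanned 10.6 Mb in all, with a median of 6.47 kb. They enclosed 770 replicate 2 peaks, of which 765 were listed on both strands, or 99.4% (98.5 to 99.8), against 1.66% of the whole replicate 2 list. In the other direction, the 183 replicate 2 stretches enclosed 1385 replicate 1 peaks, and 1337 of them, 96.5% (95.4 to 97.4), were listed on both strands. The 48 exceptions lay in 12 of the replicate 2 stretches. Peaks of the pairs described above are among those enclosed, so these shares are not independent of the pair agreement.

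Over all stretches, the one-strand peaks on either side were on unlike strands in a minority, but more often than around single one-strand peaks. The nearest one-strand peaks on either side of a replicate 1 stretch were both on the same strand in 474 of 828 stretches, or 57.2% (53.8 to 60.6). One-strand peaks taken singly had same-strand neighbours on both sides in 93.1% of cases. The flanks of a stretch have the whole stretch between them, so these shares are not matched for distance. Plus on the left and minus on the right, the order given by genes that point towards each other, was found at 231 stretches, 27.9% (24.9 to 31.1). The reverse order, minus on the left and plus on the right, was found at 123, 14.9% (12.5 to 17.5). Among one-strand peaks these orders had 3.47% each. Replicate 2 gave 212 of 376 stretches with the same strand on both sides (56.4%), 111 with plus then minus (29.5%, 25.0 to 34.4) and 53 with minus then plus (14.1%, 10.7 to 18.0). Its one-strand peaks had 86.9% same-strand neighbours.

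**Figure D2:**
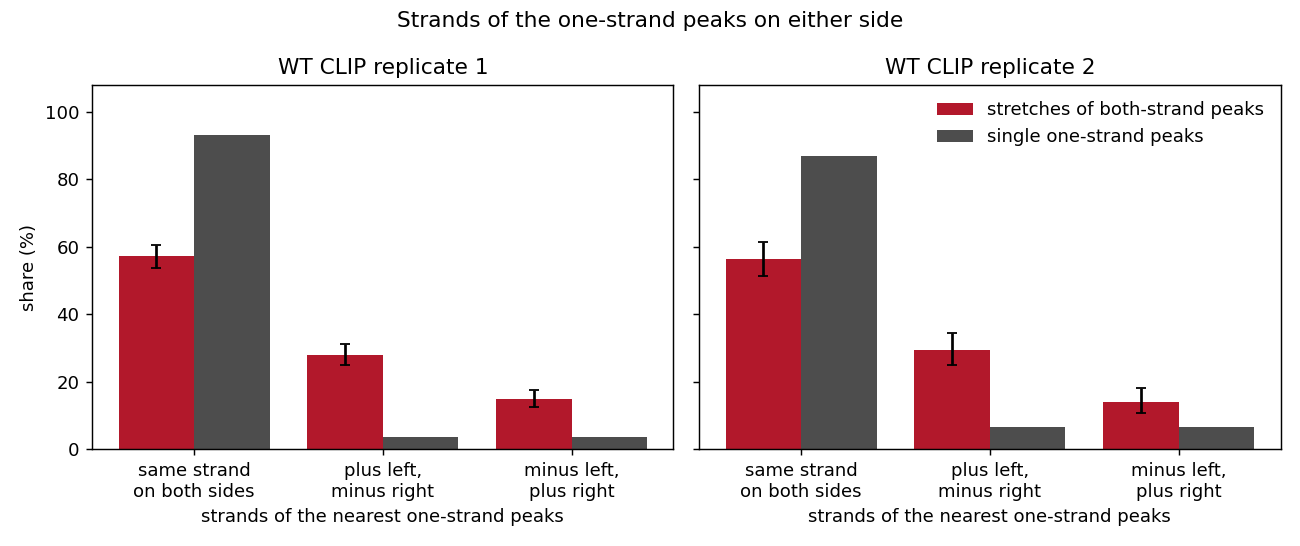
Share (vertical axis, %) of uninterrupted stretches of both-strand peaks (red, error bars are 95% exact intervals) and of single one-strand peaks (grey) by the strands of the nearest one-strand peaks on the left and right. In both replicates plus-then-minus is the more frequent of the 2 strand changes, 27.9% against 14.9% and 29.5% against 14.1%.

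Of the stretches with a strand change, plus-then-minus made up 65.3% in replicate 1 (60.0 to 70.2) and 67.7% in replicate 2 (59.9 to 74.8). In stretches of at least 2 peaks it was 72.7% (66.0 to 78.7) and 73.4% (62.3 to 82.7). Many flanking peaks were distant, with a median gap of 7.09 kb on the left in replicate 1 and 15.3 kb in replicate 2. With both flanking peaks within 5 kb, replicate 1 kept 200 stretches, of which 69 were plus-then-minus and 33 minus-then-plus, or 67.6% of the strand changes (57.7 to 76.6). Replicate 2 kept 35 stretches, with 11 and 5, too few to place the share closely (68.8%, 41.3 to 89.0). Single one-strand peaks with both neighbours within 5 kb leaned the same way. In replicate 1, 0.620% were plus-then-minus and 0.507% minus-then-plus, and in replicate 2 0.597% and 0.443%. With flanks within 5 kb, 98 of the 200 replicate 1 stretches had the same strand on both sides (49.0%, 41.9 to 56.1). In replicate 2 it was 19 of the 35 (54.3%, 36.6 to 71.2). Single one-strand peaks with neighbours that near had 98.9% and 99.0%, though without a stretch between the neighbours. Row numbers mostly matched across the ends of stretches, but less often than between one-strand neighbours. At 89.7% of 672 stretch ends with a flanking peak within 5 kb in replicate 1, the outermost both-strand peak had as many rows on the flank's strand as the flanking peak itself (87.2 to 91.9). In replicate 2 it was 89.8% of 187 ends (84.6 to 93.8). Same-strand neighbours within 5 kb among one-strand peaks matched in 99.0% of pairs in each list.

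For comparison, GENCODE release 29 was read on its own build, GRCh38, with no position carried over. Of all bases inside its protein-coding genes, 1.79% lie in genes of both strands, and 6.60% with all gene types. Its protein-coding genes form 2772 overlapping opposite-strand pairs, of which 1132 are tail to tail (40.8%), 962 head to head (34.7%) and 678 nested (24.5%). With all gene types, 12021 of 17758 pairs (67.7%) are nested. Tail-to-tail pairs are 54.1% of the protein-coding pairs that overlap in part, and 49.0% with all gene types. The plus-then-minus share of strand-changing stretches, 65.3% and 67.7%, is a share of stretches and not of gene pairs, so the figures are set side by side without a test. Which annotation, if any, lies behind the listed strands is not stated in the labels or headers.

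Both-strand peaks had fewer rows on each strand than one-strand peaks had on theirs. In replicate 1, 62.3% of the strand entries of both-strand peaks had 1 row, against 47.9% of one-strand peaks, and in replicate 2 it was 60.2% against 46.0%. The median was 1 row per strand against 2 rows in each list. In replicate 1, 1415 both-strand peaks (37.1%) had 1 row on either strand, and 87.5% had 1 row on at least 1 strand. The strands carried equal numbers of rows at 40.2% of the peaks, more on plus at 31.9% and more on minus at 27.9%. Replicate 2 gave 37.2%, 32.1% and 30.7%, so neither strand dominated. The highest number on any strand of a both-strand peak was 23 rows in replicate 1 and 18 in replicate 2, while one-strand peaks reached 77 and 33.

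The longest uninterrupted stretches of the replicates covered much the same place. In replicate 1 it ran 289 kb on chromosome 3, from 99540503 to 99829227, with 86 both-strand peaks. In replicate 2 it ran 312 kb, from 99487574 to 99799444, with 60. No one-strand peak of replicate 2 lay inside the replicate 1 stretch, which held 58 both-strand peaks of replicate 2. The longer replicate 2 stretch held 85 both-strand and 4 one-strand peaks of replicate 1. The replicate 1 peaks there had a median fold of 3.25 (1.66 to 7.53), and the replicate 2 peaks 3.58 (1.99 to 7.16). In 16 cases a replicate 1 and a replicate 2 peak shared bases. In the replicate 1 list, the nearest one-strand peak was on minus to the left, 8.05 kb away, and on plus to the right, 19.0 kb away. Each of the 86 peaks had 1 plus row, and between 1 and 6 minus rows. The peaks with equal minus rows lay in blocks, apart from the first replicate 1 peak, which had 2 minus rows. Replicate 1 had 13 peaks with 6 minus rows, 27.2 to 52.0 kb from the first base, and 30 with 3 minus rows, 55.1 to 171 kb from it. The last block had 29 peaks with 2 minus rows, 190.7 to 288.7 kb from it. Replicate 2 had 5 peaks with 6 minus rows at 27.2 to 47.0 kb, 23 with 3 at 60.2 to 176 kb and 16 with 2 at 191.4 to 258.9 kb. Further left, 12 replicate 1 peaks had 2 plus rows and 1 minus row, beyond 4 minus-only peaks. The first 2 peaks of the replicate 2 stretch, at -52.9 and -25.4 kb, also had 2 plus rows and 1 minus row. Replicate 2, the shorter list, had no minus-only peak there, so its stretch ran across a place where the replicate 1 stretches were divided.

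**Figure D3:**
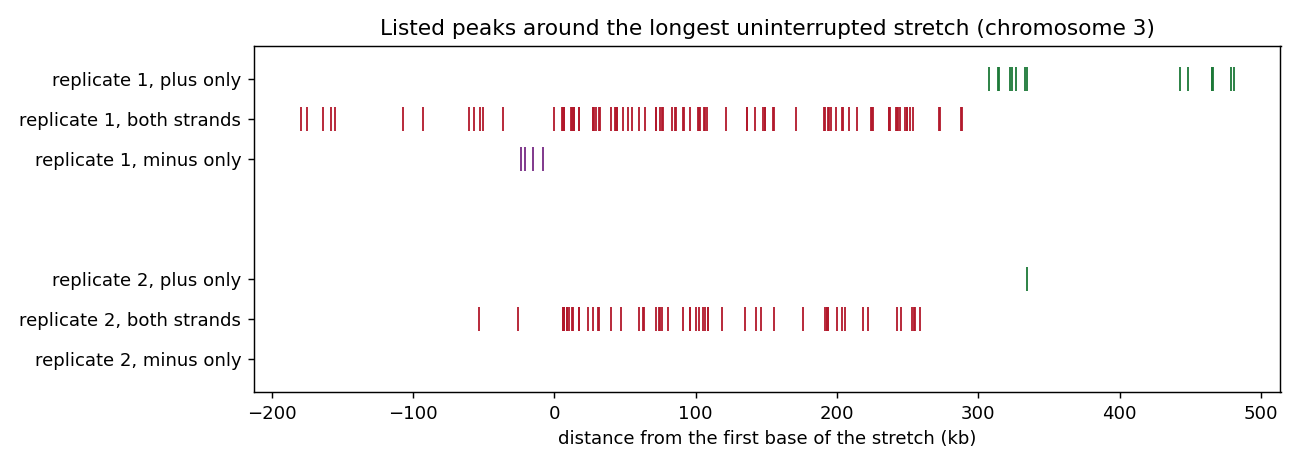
Listed peaks on chromosome 3 within 200 kb of the longest uninterrupted stretch, by distance from its first base (horizontal axis, kb) and by replicate and strand (rows). Each tick is a peak. Inside the stretch there are 86 replicate 1 and 58 replicate 2 both-strand peaks and no one-strand peak.

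Runs were also counted as both-strand peaks at most 10 kb apart, whatever stood between them. Replicate 1 had 1077 such runs and replicate 2 had 466. The 74 replicate 1 runs of at least 10 peaks held 38.4% of the both-strand peaks, and the 15 of replicate 2 held 18.6%. The 10 longest held 12.7% and 13.6%.

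The run with the most peaks in replicate 1 lay on chromosome 19, 42905631 to 42946907, with 72 peaks in 41.3 kb and a single one-strand peak among them. Its peaks were wide, with a median of 56.5 bases, and 1 reached 26.7-fold, the highest fold of any both-strand peak. Replicate 2 had 12 both-strand peaks there, and 4 of the 72 (5.56%) were in the deposited overlap list, which holds 6.53% of all replicate 1 peaks. Chromosome 22, 23414417 to 23465577, held 60 peaks in 51.2 kb with 1 row on each strand throughout. Replicate 2 had 12 peaks there, but 1 of the 60 was in the overlap list (1.67%). On chromosome 16, 85742876 to 85784147, 56 peaks had a median fold of 3.31, and 10 replicate 2 peaks lay in the same span. On chromosome 11, 2664464 to 2720421, 54 peaks each had 2 plus rows and 1 minus row. Replicate 2 listed 22 peaks in that span, 8 of the 54 were in the overlap list (14.8%), and no one-strand peak of either list lay inside. The fifth run, chromosome 3 from 99540503 to 99648867, is a part of the longest stretch, with 47 peaks, of which 11 were in the overlap list (23.4%). These shares lie on both sides of the 6.53%.

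In replicate 2, whose list holds 64517 peaks against 207069 in replicate 1, the longest runs were shorter. With gaps fixed at 10 kb, run lengths of lists of unlike size are not directly comparable. The first, chromosome 3 from 99546770 to 99587559, had 19 peaks, and 10 of these (52.6%) were in the overlap list, which holds 20.9% of all replicate 2 peaks. Chromosome 5, 80538187 to 80596770, held 16 peaks with 2 to 5 plus rows and 3 minus rows, beside 34 both-strand peaks of replicate 1 in the same span, and 3 of the 16 (18.8%) were in the overlap list. Chromosome 16, 89778859 to 89784635, was the most compact of the 5, with 16 peaks in 5.78 kb, a median fold of 5.04 and 10 peaks (62.5%) in the overlap list. Chromosome 11, 2696036 to 2720388, inside the fourth replicate 1 run, had 15 peaks, 6 of them (40%) in the overlap list. Chromosome 17, 46669262 to 46682043, had 15 peaks with 2 to 8 plus rows and 1 minus row, with 3 one-strand peaks between them, and 7 (46.7%) were in the overlap list.

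On a fixed grid of 100-kb windows, 886 windows held a both-strand peak in replicate 1 and 403 in replicate 2. The fullest in replicate 1 was chromosome 19, 42900001 to 43000000, where 72 of 139 peaks (51.8%) were listed on both strands. In chromosome 22, 23400001 to 23500000, 60 of 61 were, and in chromosome 16, 85700001 to 85800000, 59 of 76. Chromosome 17, 16300001 to 16400000, had 42 of 53 and chromosome 19, 14200001 to 14300000, had 41 of 95. The 3 fullest windows of replicate 2 adjoined each other on chromosome 3, from 99500001 to 99800000, and their 20, 22 and 17 peaks were all listed on both strands. Chromosome 5, 80500001 to 80600000, had 16 of 16, and chromosome 16, 89700001 to 89800000, had 16 of 49. Windows thus ranged from wholly both-strand to a minority among one-strand peaks.

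Chromosomes differed in their both-strand share, and in much the same order in both replicates. Chromosome 13 was highest in replicate 1, with 3.58% of 4162 peaks (3.04 to 4.19), and had 2.85% in replicate 2 (1.97 to 3.98). Chromosome 14 was highest in replicate 2, with 3.23% of 1858 peaks (2.47 to 4.14), and had 2.43% in replicate 1. Chromosome 18 had 0.749% (0.506 to 1.07) and 0.593%, and chromosome 21 had 0.790% (0.476 to 1.23) and 0.230%. Chromosomes 2, 4, 6 and 12 lay at 0.977% to 1.07% in replicate 1. Chromosomes 3, 16, 17, 19, 20 and 22 lay at 2.47% to 2.62%. Across 23 chromosomes, Y left out, the shares of the replicates had a Spearman correlation of 0.899 and a Pearson correlation of 0.896. The points share the places that both lists cover, so this is a description. Without the longest run of each chromosome the Spearman correlation was 0.885. Chromosome 19 then fell from 2.48% to 1.90% in replicate 1, and chromosome 11 from 1.62% to 1.10%. The share of protein-coding gene bases that GENCODE places on both strands of a chromosome had little relation to these values across chromosomes, with a Spearman correlation of 0.054 in replicate 1 and 0.055 in replicate 2. With all gene types the correlation was -0.165 and -0.099. Chromosome 21 had the highest protein-coding share in GENCODE, 4.02%, and was among the lowest in both peak lists. Its peak shares rest on 19 of 2405 peaks in replicate 1 and 2 of 870 in replicate 2 (0.0279 to 0.828). Chromosome 13 had 0.894% in GENCODE. A share of gene bases in GRCh38 is not a share of listed peaks in hg19, so these values are set side by side without a test.

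**Figure D4:**
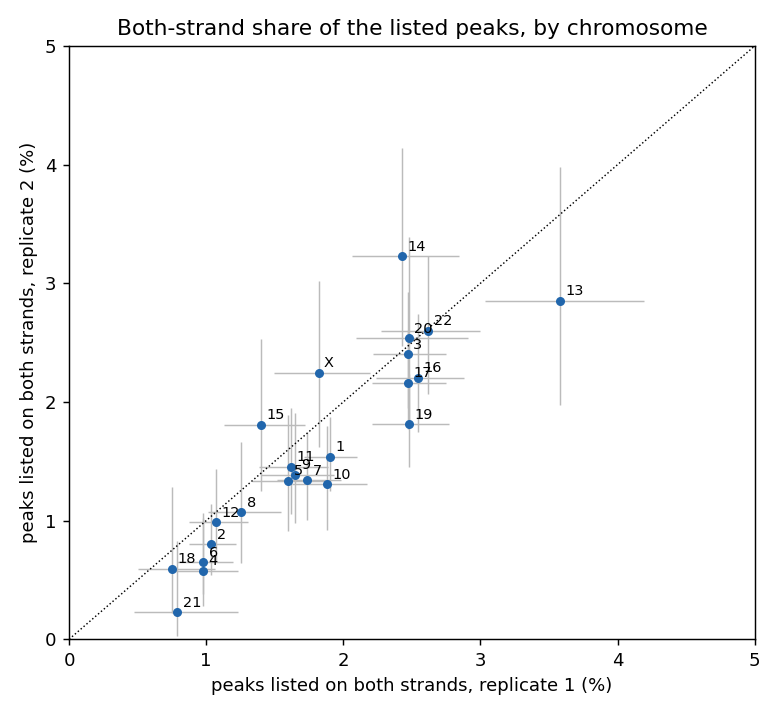
Share of listed peaks that stand on both strands in replicate 1 (horizontal axis, %) and replicate 2 (vertical axis, %), a point for each chromosome except Y, with 95% exact intervals in grey and equality as the dotted line. Chromosome 13 is highest in replicate 1 (3.58%) and chromosome 14 in replicate 2 (3.23%), and chromosomes 18 and 21 lie below 1% in both.

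In strength, both-strand peaks were close to the others. The fold enrichment and −log10 p of a peak are the values the authors deposited, and they are compared within a list. The median fold was 3.12 for both kinds in replicate 1, with interquartile ranges of 2.76 to 3.90 and 2.76 to 3.94. In replicate 2 it was 3.77 on both strands and 3.81 on 1 strand. Folds above 5 were found in 9.50% of both-strand peaks of replicate 1 (8.59 to 10.5) and 9.15% of one-strand peaks, and in 16.8% (14.6 to 19.2) and 18.1% in replicate 2. The median −log10 p was 3.70 for both kinds in replicate 1, and 4.30 and 4.24 in replicate 2. The extremes differed. The highest both-strand fold was 26.7 in replicate 1 and 15.4 in replicate 2, while one-strand peaks, which are far more numerous, reached 192.3 and 57.7. The highest −log10 p was 152 and 32.8 on both strands, against 1875 and 925 on 1 strand.

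Both-strand peaks were less often of the smallest width in each list, by a smaller margin once the 10 longest runs were left out. The median width was 31 bases on both strands and 30 on 1 strand in replicate 1, and 31 for both kinds in replicate 2. The smallest width, 30 bases, was held by 48.6% of both-strand and 51.7% of one-strand peaks in replicate 1, a difference of -3.11 points (95% Newcombe interval -4.70 to -1.50). In replicate 2 it was 44.1% and 48.0%, a difference of -3.90 points (-6.88 to -0.885). Without the 10 longest runs the difference was -0.0797 points (-1.79 to 1.63) in replicate 1 and -0.827 (-4.05 to 2.42) in replicate 2. Peaks of at least 100 bases made up 3.39% of both-strand and 1.93% of one-strand peaks in replicate 1 (difference 1.46 points, 0.929 to 2.09). Without the 10 longest runs the difference was 0.722 points (0.225 to 1.33). Replicate 2 had 0.935% and 0.679%, with an interval of the difference from -0.176 to 1.03. That step removes dense places from the both-strand peaks alone.

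The widest both-strand peak of replicate 1 was 545 bases at chromosome 13, 79176670 to 79177214, with 4.50-fold enrichment and 1 row on each strand. Replicate 2 had 4 separate peaks inside it, all on both strands and up to 119 bases wide. The second was the 404-base chromosome 19 peak given above, under which replicate 2 had 3 peaks, 2 of them on both strands. The other three came from the longest run on chromosome 19. They were 342 bases from 42906413 (9.92-fold), 313 bases from 42918637 (2.50-fold) and 279 bases from 42908790 (3.24-fold). The first and second of those had no replicate 2 peak, and the last had 1 of 66 bases on both strands. None of the 5 was in the deposited overlap list, which holds pairs in which the overlap covers at least 50% of the replicate 1 peak.

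The 5 widest both-strand peaks of replicate 2 were all in that list, which holds 20.9% of all replicate 2 peaks. Its rule counts bases of the replicate 1 peak alone, so a wide replicate 2 peak meets it more easily. No conclusion is drawn from these counts, and wide one-strand peaks were not compared. Of the 5 peaks, chromosome 16 held the first and second, 226 bases from 89783949 to 89784174 (6.68-fold) and the 211-base peak from 89784425. The replicate 1 peak under the first was 144 bases wide, from 89784031 to 89784174, with 4.41-fold enrichment. Chromosome 7, 27208411 to 27208553, had 143 bases and 4.45-fold, and a 33-base replicate 1 peak that shared 17 bases with it. Chromosome 17, 42254749 to 42254876, had 128 bases and 4.73-fold, and the replicate 1 peak there was 181 bases wide. Chromosome X, 133930672 to 133930791, had 120 bases and 6.34-fold, with 1 plus and 3 minus rows.

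How often both-strand peaks had a near neighbour differed between the replicates. Another listed peak, on any strand, lay within 1 kb of 57.9% of both-strand and 54.9% of one-strand peaks in replicate 1, a difference of 2.98 points (1.39 to 4.55). Replicate 2 had 42.1% and 43.5%, a difference of -1.47 points (-4.42 to 1.53). Without the 10 longest runs, 53.7% and 37.0% of both-strand peaks had such a neighbour, and the difference was -1.21 points (-2.92 to 0.494) in replicate 1 and -6.52 points (-9.59 to -3.33) in replicate 2. Those runs were chosen for closely spaced both-strand peaks, and no one-strand peak was removed. A fall in this share therefore follows from the choice, and no conclusion is drawn from the change of the difference.

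The deposited overlap list took up both-strand peaks about as often as others. Of the 3809 in replicate 1, 236 were in it, or 6.20% (5.45 to 7.01), beside 6.53% of all replicate 1 peaks and 6.54% of one-strand peaks. The difference from one-strand peaks was -0.341 points (-1.07 to 0.477). Of the 1070 in replicate 2, 235 were in it, 22.0% (19.5 to 24.6), beside 20.9% of all replicate 2 peaks, and the difference was 1.07 points (-1.33 to 3.67). The replicates lay on opposite sides of 0, and both intervals include it. Weighting the one-strand peaks to the same classes of −log10 p gave them 6.77% in replicate 1 and 21.2% in replicate 2.

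**Figure D5:**
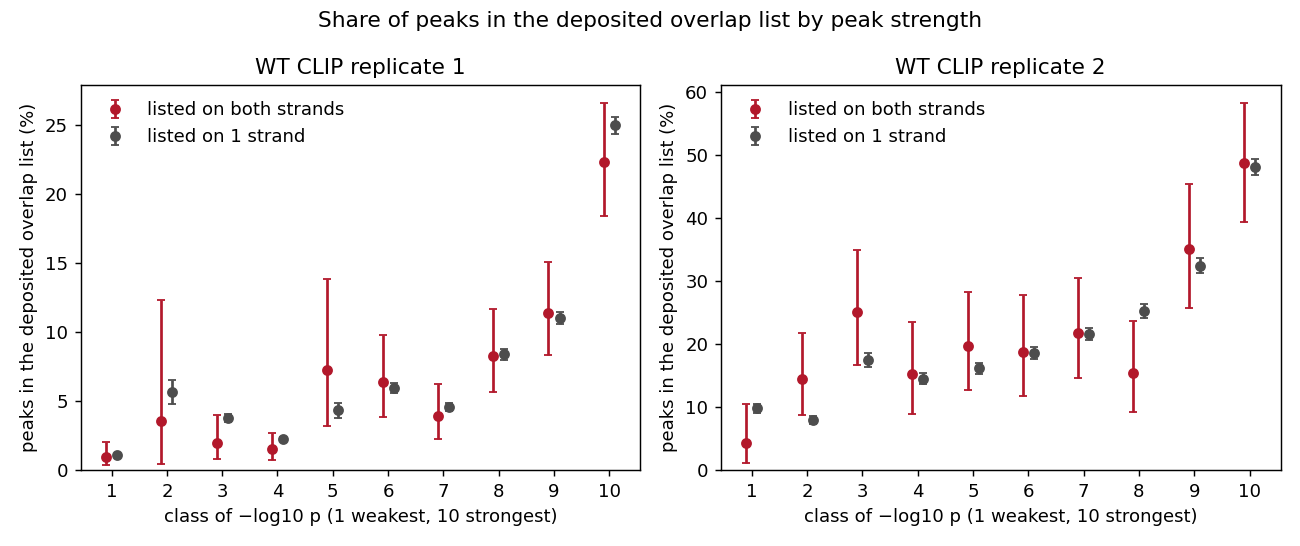
Share of peaks in the deposited overlap list (vertical axis, %) by class of −log10 p (horizontal axis, 1 weakest to 10 strongest) for peaks listed on both strands (red) and on 1 strand (grey), with 95% exact intervals. Both kinds have their highest share in the strongest class, 22.3% and 25.0% in replicate 1 and 48.7% and 48.1% in replicate 2.

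In the strongest of 10 classes of −log10 p, 22.3% of 421 both-strand peaks of replicate 1 were in the overlap list (18.4 to 26.6), against 25.0% of one-strand peaks. In replicate 2 it was 48.7% of 115 (39.3 to 58.2) against 48.1%. In the weakest class the shares were 0.992% (0.400 to 2.03) against 1.07% in replicate 1 and 4.26% (1.17 to 10.5) against 9.79% in replicate 2. In the eighth class of replicate 2 the both-strand share was lower, 15.5% (9.27 to 23.6) against 25.2%, and in the second class it was higher, 14.4% (8.76 to 21.8) against 7.99%. Tied values were kept together, so the classes are unequal in size.

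With a single shared base as the rule and strand ignored, 337 replicate 1 both-strand peaks met a replicate 2 peak, 8.85% (7.96 to 9.79), where 8.88% of all replicate 1 peaks did. In replicate 2, 347 met a replicate 1 peak, 32.4% (29.6 to 35.3), where 28.8% of all replicate 2 peaks did, and 28.7% of one-strand peaks. The replicate 2 difference was 3.71 points (0.953 to 6.60), but 0.917 points (-1.41 to 3.46) when 50% of both peaks was required. With the 1-base rule it was 3.25 points (0.481 to 6.15) without the longest run. Without the 10 longest runs 28.1% met a replicate 1 peak, and the difference was -0.578 points (-3.40 to 2.43). Runs were removed from the both-strand peaks alone, so this does not show what the difference rested on.

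Nearly all both-strand positions that are in the overlap list are entered there under both strands. Its 13758 entries stand for 13523 positions, of which 235 (1.74%, 1.52 to 1.97) are entered under plus and again under minus. These make 470 entries, 3.42% of the list. All 235 were listed on both strands in both replicates, and no position so listed was entered once. Of the remaining positions, 1 was listed on both strands in replicate 1 alone and 1 in replicate 2 alone. A count of entries therefore counts these places a second time.

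The 348 pairs listed on both strands in both replicates lay on 20 chromosomes and in 166 stretches of replicate 1. Chromosome 19 held 51, chromosome 17 held 41 and chromosome 16 held 29. These chromosomes held 303, 327 and 245 of all both-strand peaks of replicate 1, and 85, 107 and 78 of those of replicate 2. The pair counts are not set against one-strand pairs by chromosome, and a wide peak enters several pairs. The 10 fullest stretches held 100 pairs (28.7%), and 107 stretches held 1. The median fold of the pairs was 3.95 in replicate 1 (1.38 to 26.7) and 3.98 in replicate 2 (1.42 to 15.4). Both folds of a pair differed by at most 2 times in 89.9% of them, as in 90.3% of the 18318 one-strand pairs. Both peaks exceeded 5-fold in 40 pairs (11.5%), against 12.1% of one-strand pairs. The median distance between midpoints was 9.5 bases, and 8 bases in one-strand pairs.

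Of these pairs, the 10 with the highest value of the lower −log10 p were chosen for description. The first lay on chromosome X, with replicate 1 at 73047405 to 73047572 and replicate 2 at 73047413 to 73047480. Its −log10 p was 35.4 and 26.3, but its folds were low, 1.76 and 1.83. The tenth pair lay close by, with a replicate 1 peak from 73047096 to 73047147 of 2.06-fold and a replicate 2 peak of 1.71-fold. High significance at these 2 places thus went with a low fold.

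The other pairs had higher folds. On chromosome 20, a 272-base replicate 1 peak from 1309220 to 1309491 had 14.9-fold, and the 39-base replicate 2 peak inside it, from 1309310 to 1309348, had 11.96-fold. This pair had 3 plus and 2 minus rows. On chromosome 19, peaks starting at 36032167 in both lists had 11.1-fold and 7.96-fold, with 32 bases in common. On chromosome 17, 16350789 to 16350827, replicate 1 had 9.90-fold and replicate 2 had 9.78-fold, with 10 plus rows and 2 minus rows. On chromosome 7, 56148133 to 56148166, the folds were 8.77 and 7.47, with 5 plus and 4 minus rows. In these 4 pairs both replicates exceeded 7-fold.

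The sixth pair was the wide chromosome 19 peak at 54972756, 3.97-fold, with a 35-base replicate 2 peak from 54973072 of 3.32-fold. Chromosome 22, 24035380 to 24035421, had 6.84-fold in replicate 1, and a replicate 2 peak of 9.13-fold from 24035377 to 24035437. Chromosome 3, 99547465 to 99547505, inside the longest stretch, had 5.99-fold and 6.40-fold. Chromosome 13, 99900812 to 99900845, had 7.13-fold and 8.25-fold, with 3 plus rows and 1 minus row. Of the 10 pairs, 6 had 1 row on each strand.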

How the data were processed

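The submitters' processing notes name hg19 and, without a role, deepTools 3.2.1, HOMER 4.11.1, bedtools 2.25.0, MACS2 2.1.1.20160309 and Novoalign 3.09.00. Each deposited peak name contains MACS2, its library and p005, read as a p threshold of 0.005 in each library. The deposited columns are a score (a whole number near 10 times −log10 p), a fold enrichment (a linear ratio) and −log10 p. How a strand was assigned is not stated in the labels or headers. The deposited overlap list was read as pairs of peaks of the WT CLIP lists. The deposited featureCounts 1.6.3 table has 8 count columns and its summary another 8. Their names could not be matched to the sample labels, so they were not used and the count test planned for them was not run.

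Rows were collapsed to 1 entry per peak name. Overlap meant 1 shared base, by position. Shares carry 95% exact Clopper-Pearson intervals and differences Newcombe intervals, for counting error only. Peaks and places were named by fixed rules: the 5 fullest 100-kb windows, the 5 longest runs (gaps of at most 10 kb) and the 5 widest peaks of each list, and the 10 pairs with the highest lower −log10 p. The longest stretch and the 4 differing pairs were named after their values were seen. The analyses of uninterrupted stretches, their flanking peaks, the places inside them and GENCODE 29 were added after seeing the data. Classes of −log10 p numbered 10 per list, with ties kept together. Members, lists and rules were chosen with earlier results of these data known. Peak sequences, gene names and gene parts need hg19 sequence or annotation and were not analysed here. Counting was tested on simulated lists and against bedtools 2.31.1. Tools were matplotlib 3.10.9, scipy 1.17.1, pandas 2.3.3, numpy 2.4.6 and Python 3.11.15.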

Additional observations from a re-analysis of the deposited data

How the results depend on the processing

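The alternatives without the longest runs, the flanking peaks within 5 kb, the longer stretches and the weighting of the 1-base share were added once the data had been seen. Of the recomputed values, without those that leave out a replicate, 46 remained inside the main value's interval (counts within 1.5 times), 11 moved outside it and 2 moved outside it with a change of sign. Of the 46, 2 were identical to the main value (same strand required for 1 shared base). Some values inside it also changed sign, since several main intervals include 0. Without the 10 longest runs, the difference in peaks with a neighbour within 1 kb changed from 2.98 to -1.21 points in replicate 1, and from -1.47 to -6.52 in replicate 2. The difference in the 1-base share of replicate 2 changed from 3.71 to -0.578. The difference in peaks of 30 bases went to -0.0797 and -0.827 points, and in peaks of at least 100 bases to 0.722 in replicate 1. In the replicate 1 peaks at or above the median −log10 p (50%), the neighbour difference was 6.99 points and that in peaks of at least 100 bases 2.48. With neighbours within 5 kb it was 0.960 in replicate 1. With 50% of both peaks required, the replicate 2 overlap difference was 0.917 (-1.41 to 3.46). Without 30-base peaks, the both-strand share was 1.96% and 1.78%. In stretches of at least 2 peaks, plus-then-minus had 72.7% of strand changes in replicate 1. The cause was not tested. Over the means of both replicates, leaving out each leaves the other's own value, which is no check of stability: -0.341 to 1.07 points for the overlap list, -0.0323 to 3.71 for 1 shared base, -3.90 to -3.11 for 30-base peaks and -1.47 to 2.98 for neighbours. The gene alternatives were not run, since they need an hg19 annotation. No paired analysis was possible because no result comes from a test between groups. Leaving out runs removes closely spaced both-strand peaks alone, not one-strand ones. The values without runs therefore do not show what a difference rested on.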
